A study of Mus musculus with 24 samples.

Results

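The response of wild-type M1 macrophages to dopamine (DA) was described across all expressed genes. It rests on 6 RNA-seq libraries of mouse bone marrow-derived macrophages (BMDMs), 3 from DA-treated M1 wild-type (WT) cells and 3 from untreated M1 WT cells. They were picked by their labels for genotype, cell type and treatment from the 12 M1 libraries, and 24 libraries make up the series. Of the 18063 genes listed in the M1 files, 10040 had at least 1 FPKM (fragments per kilobase of transcript, scaled to the library's mapped fragments) in 3 or more of the 12 M1 libraries and were tested. Both groups came from C57BL/6 mice of 10 weeks and were stimulated for 12 h with LPS at 100 ng/ml and IFN-γ at 50 ng/ml, the M1 stimulus, in the presence or absence of DA. The labels give no dose of DA, and the study's description of these libraries gives 20 µM. The other 6 M1 libraries are 3 with and 3 without DA, under the same stimulus. Their BMDMs came from DRD5-/- mice, also of 10 weeks, which lack the dopamine receptor D5. These 6 libraries entered the model for its estimate of the spread and for the comparison of DA effects at the end.

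Macrophages stimulated with LPS and IFN-γ take on the M1 state, in which they release inflammatory cytokines and chemokines, make nitric oxide from arginine and lean on glycolysis. Dopamine binds a family of G protein-coupled receptors. D5, like D1, couples to the stimulatory G protein, which activates adenylyl cyclase and raises cAMP, so that protein kinase A is released and can phosphorylate the transcription factor CREB. Macrophages also take up red blood cells and break down their heme. For this they use a heme transporter, heme oxygenase and the iron exporter ferroportin, and the transcription factor Nrf2 drives many of the antioxidant genes that accompany this work.

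The libraries were alike in their summed signal. The FPKM of a WT library summed to between 481236 and 488250, and Pearson's r between libraries of a group was 0.997 to 0.998 over the tested genes. The number of reads per library is unknown here. The 10 most abundant genes took 15.6% to 15.9% of the FPKM without DA and 17.5% to 17.7% with it, and *Hmox1* alone went from 0.784% to 2.05%. All 10 macrophage markers (*Adgre1*, *Csf1r*, *Cd68* and others) were above 1 FPKM. The labels name the colon in the growth protocol and bone as the tissue, while the study's methods describe marrow of tibias and femurs grown in L929-conditioned medium. Epithelial markers did not pass 0.09 FPKM in any library. *Drd5* was not among the genes listed in the M1 files, so the genotype was not checked on it. Nothing in the labels says whether the 3 libraries of a group are separate mice or cultures, so the p-values measure the spread between these libraries, which may be technical. In bulk RNA, fewer cells of a type and less RNA per cell cannot be told apart.

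With DA, heme handling, antioxidant, sterol synthesis and C-type lectin genes were among those that rose in M1 WT BMDMs, and cytosolic chaperone, translation and proteasome genes were among those that fell. In limma on log2(FPKM + 1), 1439 of the 10040 genes tested (14.3%) had an adjusted p under 0.001 and at least a 1.2-fold change, the threshold used throughout, which is 0.263 on the log2 scale. Of these, 475 (4.73% of the genes tested) were higher with DA and 964 (9.6%) lower. The DA-treated libraries did not overlap the untreated libraries in any of the 1439 genes, and the same held for 5668 of the 10040 genes tested (56.5%). The split into higher and lower depends on the scaling, because the median change of all genes was -0.067 and went to -0.003 when libraries were scaled by the median of ratios. That scaling called 680 genes higher (6.77%) and 534 lower (5.32%). It kept 475 of the 475 higher genes and 534 of the 964 lower ones, and turned 0 genes to the opposite direction. Thus 33% of the calls were increases on the deposited scale and 56% after scaling, against 52.2% with quantile normalization and 55.3% with the trends of GC content and length removed.

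Most changes were small. Folds here are of FPKM + 1, which understates those of low genes. *Rnf183*, counted below 3-fold on this scale, had a ratio of the mean FPKM of 3.64. Between 1.2-fold and 1.5-fold there were 346 higher and 845 lower genes, and between 1.5-fold and 2-fold 107 higher and 97 lower. At 2-fold or more, 44 genes (0.438% of those tested) passed, 22 higher and 22 lower. Between 2-fold and 3-fold there were 21 higher and 16 lower genes, and at 3-fold or more 1 higher and 6 lower. All 44 genes kept their call and direction under every setting of the processing that was tried. Lower calls were the more frequent the higher the GC content. They made up 7.22% of the quartile of genes with the lowest GC content, then 9.24%, 10.6% and 11.7% of the next 3 quartiles, with median changes of -0.039, -0.061, -0.082 and -0.092. Whether GC content had a part in the small decreases was not tested beyond the removal of its trend. In the plot of all tested genes by expression, the chaperones *Hspa1a* and *Hspa1b* lie lowest and *Slc40a1* highest.

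**Figure D1:**
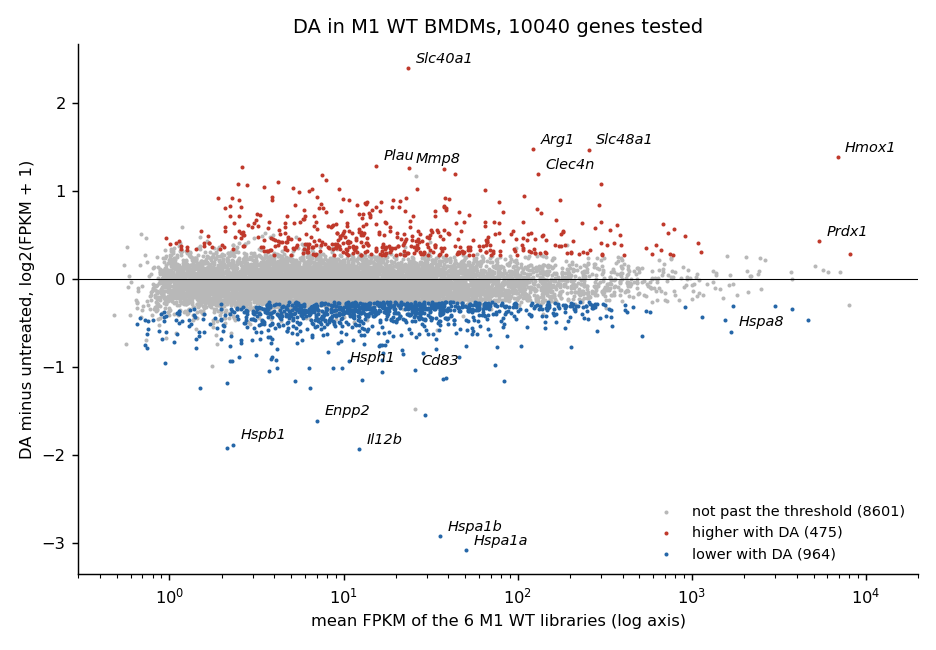
Change with DA in M1 WT BMDMs on the log2(FPKM + 1) scale (y axis) against the mean FPKM of the 6 WT libraries (x axis, log scale) for the 10040 genes tested. Each point is a gene; the 475 higher and 964 lower genes past the threshold are in red and blue and the rest in grey, with *Slc40a1* at 2.39 and *Hspa1a* at -3.08 as the ends of the range of called genes.

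Genes of the heme and iron route rose at its import, breakdown and export steps. *Slc40a1* encodes ferroportin, the only known iron exporter of mammalian cells. It was at 6.96, 6.38 and 7.19 FPKM in the untreated libraries and at 40.5, 40.9 and 39.2 in the DA-treated ones. *Slc48a1*, which encodes a transporter that brings heme out of the phagolysosome, was at 140, 132 and 136 FPKM without DA and 373, 379 and 381 with it. Neither gene had overlapping groups, and both groups were tight around their means. The changes in log2(FPKM + 1) were 2.39 ± 0.0547 (SE, adjusted p = 1.87e-13) for *Slc40a1* and 1.47 ± 0.0266 (SE, adjusted p = 1.68e-14) for *Slc48a1*. *Hmox1*, the heme oxygenase that opens the heme ring and frees its iron, had the largest gain in FPKM of all genes. It went from 3806 ± 87.1 to 9920 ± 186 FPKM (SD, n = 3 each), a change of 1.38 (adjusted p = 4.97e-14).

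Around these 3 genes, the heme and iron list was mixed. Of its 43 tested members, 10 rose and 4 fell (32.6% called, against 14.3% of all genes tested). The median of 0.011 lay near that of all genes, -0.067. *Spic*, the transcription factor known from red pulp macrophages, rose by 0.68, and *Bach1*, the heme-sensing repressor of *Hmox1*, by 0.35. Of the ferritin chains that store iron, the light chain *Ftl1* rose by 0.28, with the call lost without untreated library 3 or DA-treated library 3 (0.25 each) and with quantile normalization (0.06). The heavy chain *Fth1* did not pass (0.08, adjusted p = 0.0742). *Cp*, the ferroxidase ceruloplasmin, fell by 0.47. The number of members that rose was 7 to 9 when 1 library was left out, and 2 members fell with the GC content and length trends removed.

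The antioxidant and glutathione genes known as Nrf2 targets rose more broadly. Of 61 tested members, 25 rose and 4 fell (47.5% called, against 14.3% of all genes tested), with a median of 0.159. *Gclm*, the regulatory subunit of the enzyme that commits cysteine to glutathione, was at 95.2, 93.2 and 92.8 FPKM without DA and at 165, 160.03 and 163 with DA. All 3 DA-treated libraries were above all 3 untreated ones, with a change of 0.79 ± 0.0263 (SE, adjusted p = 2.02e-11). *Prdx1*, a peroxiredoxin that removes hydrogen peroxide, was among the most abundant transcripts and went from 4601, 4495 and 4653 FPKM to 6340.4, 6107 and 6025, a change of 0.43 (adjusted p = 1.93e-08). Again the groups were apart.

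Other members that rose belong to the same steps. The aldo-keto reductase *Akr1b8* rose by 1.19, catalase *Cat* by 0.74, the quinone reductase *Nqo1* by 0.62, the cystine importer *Slc7a11* by 0.49 and thioredoxin reductase *Txnrd1* by 0.34. Transcripts of Nrf2 itself (*Nfe2l2*, 0.06, adjusted p = 0.0618) and of its inhibitor *Keap1* (-0.19, adjusted p = 0.000502) did not pass the threshold, the latter for its size. Among the 4 members that fell was *Sesn2*, a stress-induced sestrin, by 0.56.

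Promoters of these genes were searched for the core of the antioxidant response element, TGACNNNGC, on both strands. The windows reached from 250 bases before to 50 after the transcription start of the RefSeq annotation of GRCm38.p6, and 8139 of the 10040 tested genes were matched to one. The core was in 12.4% of all 32851 promoters and 17.4% of those of tested genes. It was in 7 of the 21 promoters found for the members that rose (33.3%) and in 9 of 31 for the members that did not pass (29%), so it did not separate the members by their change. Shown are the windows of the 2 genes whose values were given above, with the core in capitals, for *Gclm* at chr3:122245408-122245446 (plus strand) and *Prdx1* at chr4:116685451-116685489 (plus strand).
Gclm: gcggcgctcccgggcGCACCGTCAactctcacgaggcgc
Prdx1: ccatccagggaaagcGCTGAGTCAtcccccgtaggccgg
Both carry the core as read from the minus strand, 134 bases and 133 bases before the start. A match to these letters is a description of the window and not a bound site.

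**Figure D2:**
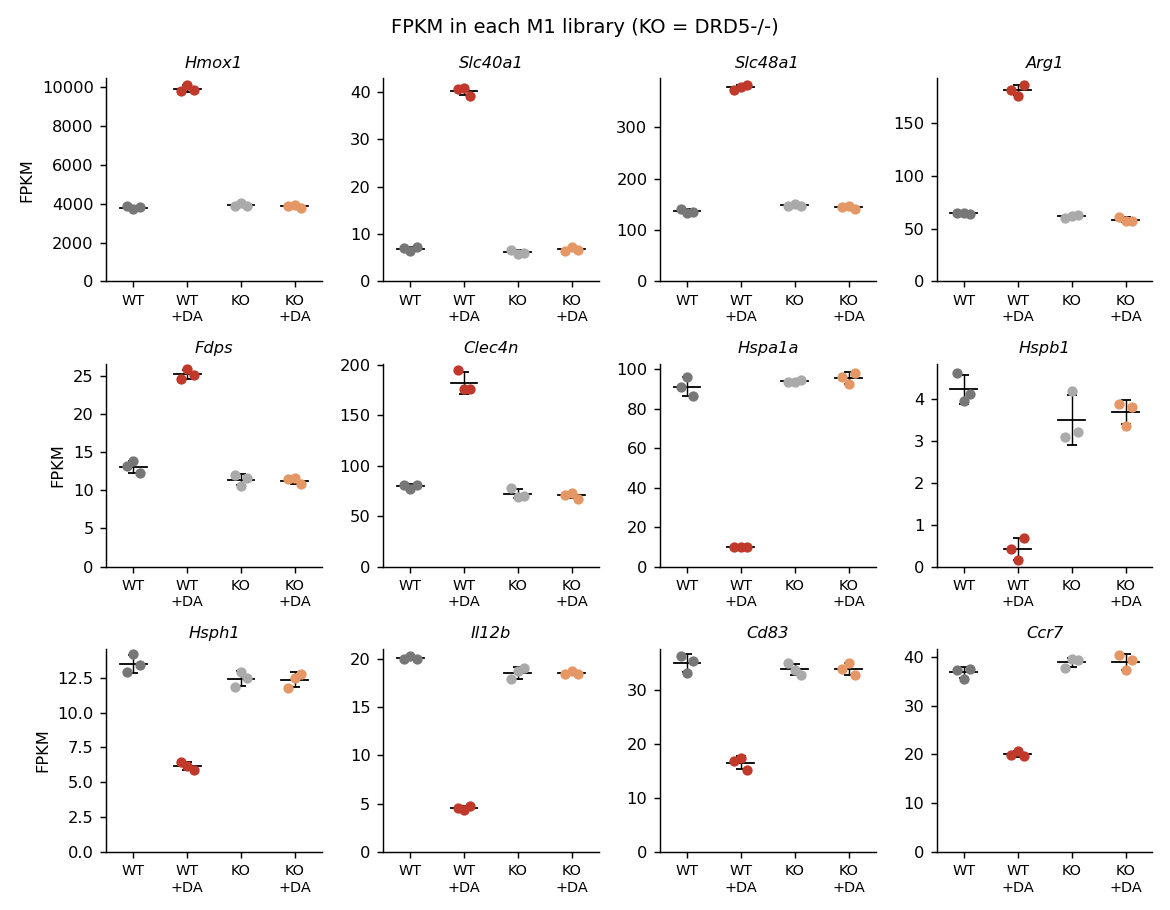
FPKM (y axis, linear, from 0) of 12 genes in each of the 12 M1 libraries, by group (x axis; KO is DRD5-/-). Points are libraries, and the lines show the mean and SD of 3; for all 12 genes the DA-treated WT libraries lie apart from the untreated WT libraries, as *Hmox1* with 9920 against 3806 FPKM and *Hspa1a* with 9.88 against 91.2.

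Cytosolic heat shock chaperones showed the largest decreases. Heat shock proteins fold new and damaged proteins, and the transcription factor Hsf1 drives them. *Hspa1a*, the inducible Hsp70, was at 91.3, 96.04 and 86.4 FPKM without DA and at 9.77, 9.96 and 9.91 with it. Its neighbour and near-copy *Hspa1b* went from 63.3, 65.6 and 63.4 FPKM to 7.17, 7.65 and 7.9, and reads may be split between the 2 genes. The DA-treated libraries lay far below the untreated ones in both genes, with a ratio of the mean FPKM of 0.108 for *Hspa1a*. The changes were -3.08 ± 0.0359 (SE, adjusted p = 9.06e-17) and -2.92 ± 0.036 (SE, adjusted p = 9.97e-17). The small heat shock protein *Hspb1* fell by 1.89 and *Hsph1*, which exchanges the nucleotide of Hsp70, by 1.01.

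The decreases extended to most members of the list. Of 61 tested chaperone genes, 0 rose and 37 fell (60.7% called, against 14.3% of all genes tested), with a median of -0.323. With median-of-ratios scaling 29 fell and 1 rose. *Hspa8*, the constitutive Hsp70, was at 1995, 2021 and 2050.0 FPKM without DA and at 1348, 1337 and 1307 with it (-0.60, adjusted p = 1.28e-10). The cytosolic Hsp90 forms *Hsp90aa1* and *Hsp90ab1* fell by 0.78 and 0.65, the co-chaperone *Dnaja1* by 0.77 and *Hsf1* by 0.47. The Hsp70 and Hsp90 of the endoplasmic reticulum did not pass, *Hspa5* at -0.18 (adjusted p = 0.000325) and *Hsp90b1* at 0.02 (adjusted p = 0.615).

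The mitochondrial chaperonin pair fell by like amounts. *Hspd1*, which encodes Hsp60, was at 21.98, 21.5 and 21.9 FPKM without DA and at 13.2, 11.6 and 10.5 with it. Its partner *Hspe1*, which encodes Hsp10, went from 29.3, 28.5 and 28.0 FPKM to 16.2, 13.8 and 16.1. No library of one group reached into the other in either gene, with changes of -0.84 ± 0.0564 (SE, adjusted p = 2.69e-08) and -0.86 ± 0.0519 (SE, adjusted p = 8.98e-09). The 2 genes are transcribed away from each other. A window within the region between their starts, chr1:55088044-55088091 in GRCm38.p6, holds the letters of the heat shock element, GAANNTTCNNGAA. Capitals mark 2 overlapping matches on opposite strands, read from the minus strand for *Hspd1* and from the plus strand for *Hspe1*.
Hspd1: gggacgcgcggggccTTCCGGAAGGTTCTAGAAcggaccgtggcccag
Hspe1: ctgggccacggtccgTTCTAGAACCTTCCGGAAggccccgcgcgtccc
The element, searched on both strands, was in 0.603% of all promoters and 0.504% of those of tested genes. It was in 4 of the 30 promoters of chaperone genes that fell (13.3%), of which this shared region accounts for 2. The other 2 were those of *Hsph1* and *Dnajb6*. No match was found for *Hspa1a*, *Hspa1b* or *Hspb1*, though not every gene that fell had a promoter in the search. Among the chaperone genes that did not pass, the element was in 1 of 21.

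Many sterol synthesis genes rose. In macrophages as elsewhere, the transcription factor SREBP2 switches on these enzymes when sterols are low in the endoplasmic reticulum. Of 33 tested members, 16 rose, 0 fell and 17 did not pass (48.5% called, against 14.3% of all genes tested). The median was 0.286, with 5 members below 0, the lowest at -0.27. When 1 library was left out, 11 to 15 members rose. *Fdps*, which makes farnesyl diphosphate, was at 13.1, 13.8 and 12.2 FPKM without DA and at 24.6, 25.8 and 25.1 with it. All DA-treated libraries were above all untreated ones (0.90 ± 0.0515, SE, adjusted p = 5.39e-09). The demethylase *Cyp51* rose by 0.90, *Msmo1*, which removes methyl groups from sterols, by 0.77 and *Srebf2*, the gene of SREBP2, by 0.51.

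*Hmgcs1*, an early enzyme of the route, rose by 0.36. Its promoter is shown because it was the only one of 10 found for the sterol genes that rose to hold the sterol response element core TCACNCCAC (capitals) on either strand, at chr13:119690199-119690237, plus strand. That core was in 1.24% of all promoters, 1.35% of those of tested genes and 0 of 15 for the sterol genes that did not pass.
Hmgcs1: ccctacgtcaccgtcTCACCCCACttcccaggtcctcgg
The cholesterol exporters *Abca1* (-0.25, adjusted p = 0.00242) and *Abcg1* (-0.03, adjusted p = 0.412) did not pass. *Ch25h*, which makes 25-hydroxycholesterol, fell from 118, 115 and 113 FPKM to 51.4, 47.9 and 54.0, a change of -1.16 (adjusted p = 1.12e-10) with the groups far apart.

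Fat handling genes moved in both directions, with 7 of 48 tested members higher and 6 lower (27.1% called, against 14.3% of all genes). The fatty acid transporter *Cd36* rose by 0.89, lipoprotein lipase *Lpl* by 0.84 and the binding protein *Fabp4* by 0.80, while *Fabp3*, its relative of muscle, fell by 1.06. *Cyb5a*, an electron donor of lipid desaturases and sterol enzymes, was at 190.3, 195 and 191 FPKM without DA and at 410.2, 400.2 and 407 with it, which is a change of 1.08 (adjusted p = 6.27e-10) without overlap.

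**Figure D3:**
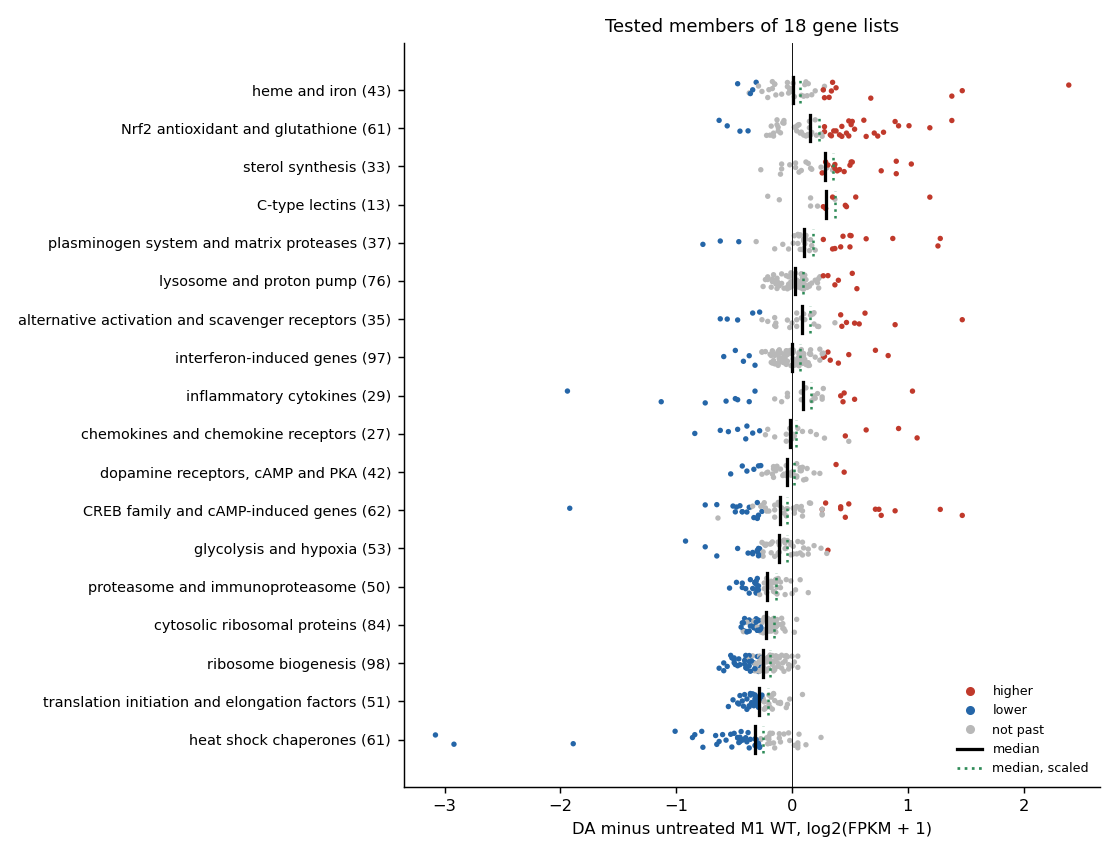
Change with DA in M1 WT BMDMs on the log2(FPKM + 1) scale (x axis) for the tested members of 18 gene lists (y axis, number tested in parentheses). Points are genes, in red or blue when past the threshold; the black line is the list's median and the dotted line its median with median-of-ratios scaling, from -0.323 for the heat shock chaperones to 0.293 for the C-type lectins before scaling.

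Cytokine genes did not move as one group. Of 29 tested members, 8 fell and 5 rose (44.8% called, against 14.3% of all genes), or 7 and 8 with median-of-ratios scaling. The decreases included subunits of the IL-12 family. *Il12b*, which is part of IL-12 and IL-23, fell by 1.94 (ratio of the means 0.225), *Il27*, a subunit of IL-27, by 1.13 and its partner *Ebi3* by 0.49. The IL-1 receptor antagonist *Il1rn* fell by 0.47, while *Il1b* did not pass (-0.15, adjusted p = 0.00458). *Il6* fell by 0.75 and *Tnf* rose by 0.45. *Tnfsf4*, the ligand of OX40 on T cells, rose by 1.04 from a low level of 1.43 to 2.35 FPKM to between 4.89 and 5.1.

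Among 27 chemokines and their receptors, 8 fell and 4 rose (44.4% called, against 14.3% of all genes), or 6 and 6 with scaling. *Cxcl3*, which draws neutrophils, was at 25.7, 25.6 and 27.2 FPKM without DA and at 50.01, 49.4 and 51.9 with it (0.92, adjusted p = 3.59e-08). *Cxcl2*, which acts on the same receptor, rose by 0.64. Both genes had all DA-treated libraries above the untreated ones. *Ccl5* and *Ccl22*, which draw T cells, fell by 0.47 and 0.62. *Ccr7*, the receptor that guides cells to lymph nodes, went from 37.4, 35.6 and 37.6 FPKM to 19.9, 20.7 and 19.7 (-0.84, adjusted p = 3.68e-10). *Ccr3* rose by 1.08 and *Ccr1* by 0.46.

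Regulators of the NF-κB pathway were called no more often than genes in general. Of 35 tested members 1 rose and 4 fell, which is 14.3% and equal to the share of all genes. *Ikbkg* rose by 0.46, and *Nfkbib* and *Bcl3* were among those that fell, by 0.41 and 0.37. The early feedback inhibitors *Nfkbia* (-0.08, adjusted p = 0.0381) and *Tnfaip3* (-0.07, adjusted p = 0.122) did not pass. Interferon-induced genes were also near the background, with 8 of 97 higher and 5 lower (13.4%).

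Costimulatory and checkpoint genes were called more often (38.2%, against 14.3% of all genes), with 8 of 34 higher and 5 lower, or 3 lower with scaling. *Cd40*, through which T cells stimulate macrophages, fell by 0.56 and the checkpoint receptor *Havcr2* rose by 0.61. *Cd83*, a surface marker of activated antigen-presenting cells that is in none of these counts, was at 36.3, 33.03 and 35.3 FPKM without DA and at 16.8, 17.4 and 15.1 with it, a change of -1.04 (adjusted p = 8.28e-10). The survival genes of the *Bcl2a1* family fell together, *Bcl2a1d* by 1.54, *Bcl2a1a* by 1.15 and *Bcl2a1b* by 0.99, but they are near-identical copies and reads may be shared among them. *Txnip*, which binds and inhibits thioredoxin, rose by 0.94.

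Genes of arginine use went in opposite directions. *Arg1*, which turns arginine into ornithine, rose by 1.47. Downstream of it, *Odc1*, the first enzyme of polyamine synthesis, went from 19.9, 21.1 and 20.6 FPKM to 11.3, 11.7 and 12.3 (-0.76, adjusted p = 4.71e-09). *Gatm*, which takes arginine into creatine synthesis, was at 52.1, 52.9 and 55.0 FPKM without DA and at 24.3, 24.96 and 22.2 with it (-1.13, adjusted p = 5.26e-11). Both fell with no overlap of the groups. The arginine importer *Slc7a2* fell by 0.41. Of the 25 tested members of the list, 1 rose and 5 fell (24% called, against 14.3% of all genes), or 2 and 5 with scaling.

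Surface receptors of the C-type lectin family rose, with 7 of 13 tested members higher and 0 lower (median 0.293). The share called was 53.8%, against 14.3% of all genes. C-type lectin receptors bind sugars and lipids of microbes and dying cells. *Clec4n*, which encodes Dectin-2, was at 81.3, 76.7 and 81.02 FPKM without DA and at 195, 176 and 176 with it (1.19, adjusted p = 2.51e-10), a clear separation. *Clec4d* rose by 0.55 and *Clec7a*, which encodes Dectin-1, by 0.47. Several of the genes lie in 1 cluster and are related in sequence.

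Pericellular proteolysis genes followed, with 12 of 37 members of the plasminogen and matrix protease list higher and 3 lower (median 0.107). The share called was 40.5%, against 14.3% of all genes. *Plau*, the urokinase that activates plasminogen, was at 8.44, 8.81 and 8.38 FPKM without DA and at 21.6, 21.5 and 23.7 with it. The collagenase *Mmp8* went from 13.3, 12.4 and 15.1 FPKM to 34.4, 32.9 and 33.8. In both, each DA-treated library was above 2 times the highest untreated one, and the changes were 1.28 ± 0.0532 (SE, adjusted p = 2.01e-10) and 1.26 ± 0.056 (SE, adjusted p = 3.84e-10). *Mmp8* is also a gene of neutrophils, whose marker *S100a8* was at 22.2 to 26.9 FPKM without DA and 39 to 43.4 with it, while *Elane* was at 0, and their part in the result was not tested. The urokinase receptor *Plaur* rose by 0.42 and the elastase *Mmp12* by 0.64. *Serpinb2*, an inhibitor of *Plau*, rose by 0.87.

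Among 36 transcription factors of macrophages, 8 rose and 4 fell (33.3% called, against 14.3% of all genes). *Klf2* and *Klf4*, which restrain inflammatory activation, rose by 0.72 and 0.75 and *Tfec* by 0.74, while *Batf* fell by 0.81 and *Hif1a* by 0.65. Of the other genes that passed 2-fold, *Enpp2*, which encodes autotaxin, the enzyme that makes lysophosphatidic acid, was at 11.1, 10.8 and 11.5 FPKM without DA and at 3.02, 2.87 and 3.0 with it (-1.61, adjusted p = 2.36e-12). The endothelin receptor *Ednrb* rose by 1.12, from below 5 FPKM.

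Many genes of the protein synthesis machinery fell, by small amounts. Of 51 translation initiation and elongation factors, 28 fell and 0 rose (median -0.285, 54.9% called against 14.3% of all genes). Of 98 ribosome biogenesis genes 33 fell and 0 rose (median -0.253, 33.7% called). Of 84 cytosolic ribosomal protein genes 25 fell and 0 rose (median -0.229, 29.8% called). *Eef1a1*, the elongation factor that brings aminoacyl-tRNA to the ribosome, was at 1309, 1319 and 1309.7 FPKM without DA and at 969, 976 and 968 with it (-0.43, adjusted p = 1.47e-09). The nucleolar protein *Npm1* fell by 0.59. These counts depend on the scaling, since with the median of ratios 15, 18 and 10 members of the 3 lists fell, and 0 rose in each. The ribosome biogenesis count was also lower whenever 1 library was left out, at 19, 18 and 24 without untreated library 1, 2 or 3 and 18, 20 and 21 without DA-treated library 1, 2 or 3.

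The proteasome, which degrades proteins, had 19 of 50 genes lower and 0 higher (38% called), and 8 lower with scaling. The glycolysis and hypoxia list had 13 of 53 lower and 1 higher (26.4% called), and 7 lower and 2 higher with scaling. *Slc16a1*, a lactate transporter, fell by 0.92 and the hexokinase *Hk2* by 0.47. *Psat1*, which makes serine from a glycolytic intermediate, went from 59.7, 59.2 and 60.1 FPKM to 32.6, 32.02 and 31.1 (-0.88, adjusted p = 6.13e-12), with the groups apart. *Mat2a*, which makes the methyl donor S-adenosylmethionine, rose by 0.81. Of 76 lysosome genes 6 were higher and 0 lower, and 11 were higher with scaling. The share called before scaling, 7.89%, was below the 14.3% of all genes tested. Of 234 zinc finger genes named Zfp, 2 were higher and 2 lower (1.71% called), or 3 and 1 with scaling.

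Cell cycle regulators were mixed, with 3 of 27 higher and 7 lower (37% called, against 14.3% of all genes), or 5 and 6 with scaling. *Ccnd2* and *Ccnd1*, which encode 2 of the D-type cyclins that open the cell cycle, moved apart. *Ccnd2* was at 21.8, 22.2 and 22.5 FPKM without DA and at 10.9, 11.4 and 11.4 with it (-0.92, adjusted p = 2.75e-10). *Ccnd1* rose by 0.42.

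The dopamine and cAMP pathway itself was mixed. Of 69 listed members, 42 were expressed enough to be tested, and 2 rose and 6 fell, which is 19% against 14.3% of all genes tested. *Drd1* and *Drd4* did not pass 0.03 and 0.04 FPKM in any of the 6 libraries and *Drd3* was listed at 0. *Gnas*, the stimulatory G protein, was between 408 and 422 FPKM without DA and between 415 and 422 with it, so the groups overlapped (0.01, adjusted p = 0.757). The adenylyl cyclase *Adcy7* (-0.00, adjusted p = 0.983) and the kinase subunit *Prkaca* (-0.06, adjusted p = 0.362) did not pass either. Of the 6 that fell, 4 were phosphodiesterases, the enzymes that degrade cyclic nucleotides. The phosphodiesterase *Pde4b*, which hydrolyses cAMP, was at 23.6, 23.1 and 23.3 FPKM without DA and at 17.4, 17.6 and 17.9 with it (-0.39, adjusted p = 2.07e-07). *Pde2a* fell by 0.53 and *Pde3b* by 0.43. With scaling 3 members fell in place of 6. *Grk5*, a kinase that turns off receptors, rose by 0.38 but lost its call without untreated library 2 or 3 (0.35 and 0.37) or DA-treated library 1, 2 or 3 (0.36, 0.39 and 0.38). *Ptger2*, a prostaglandin E2 receptor, rose by 0.45 and lost its call without untreated library 2 or 3 (0.42 and 0.39) or DA-treated library 2 or 3 (0.40 and 0.47).

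Genes of the CREB family and genes known to be induced by cAMP went both ways. Of 62 tested members, 12 rose and 17 fell (median -0.101, 46.8% called against 14.3% of all genes), and with scaling 13 rose and 8 fell. Without untreated library 1 the number that fell was 11. The phosphatase *Dusp4* rose by 0.89 and *Rgs2*, which limits G protein signalling, by 0.77. The coactivator-binding protein *Cited4* fell by 1.92, the nuclear receptor *Nr4a3* by 0.65 and the antiproliferative *Btg2* by 0.49. The cAMP response element TGACGTCA, which is its own reverse complement, was in 1.79% of all promoters and 3.71% of those of tested genes. It was in 0 of 7 promoters found for members that rose, 2 of 16 for members that fell and 1 of 23 for members that did not pass. One of those that fell is shown with the element in capitals, at chr1:134079299-134079336, minus strand.
Btg2: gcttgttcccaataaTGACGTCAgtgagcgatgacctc

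The comparison with DRD5-/- BMDMs asks which of these changes differ in cells without the receptor. In DRD5-/- cells, limma called 0 genes (0%) with DA. Of the 10040 genes tested there, 569 had an unadjusted p under 0.05, which is near the share this cutoff gives without any effect. The DA effect itself differed between the genotypes in 841 genes (8.38%), by the interaction term at the same threshold. It was higher in WT for 321 and lower for 520. Among the 1439 genes called in WT, the effect differed in 803 (55.8%) and did not pass in 636, so for the latter a difference between the genotypes was not shown. All 44 genes that changed at least 2-fold in WT were among the 803, and their changes in DRD5-/- cells lay between -0.13 and 0.14. Over the genes higher in WT the median change was 0.43, and 0.006 for the same genes in DRD5-/- cells. Over the lower genes it was -0.37 and -0.009. All these genes were picked by their WT change, which also enters the interaction term and the WT medians. The 803, the 44 and the medians are therefore not independent of that choice.

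Single genes were read in the DRD5-/- libraries as well. *Hspa1a* was at 93.7, 93.8 and 94.7 FPKM in untreated and at 96.3, 92.5 and 98.2 in DA-treated DRD5-/- libraries, and the 2 groups overlapped. The effect in WT was lower by 3.11 ± 0.0507 (SE, adjusted p = 1.13e-14). *Slc40a1* was at 6.62, 5.82 and 5.99 without and 6.39, 7.18 and 6.67 FPKM with DA in DRD5-/- cells, again with overlap, and its effect was higher in WT by 2.28 (adjusted p = 5.06e-11). The effect differed in 30 of the 61 chaperone genes, 24 of the 61 antioxidant genes and 9 of the 33 sterol genes. It also differed in 8 of the 43 heme and iron genes, 7 of the 13 C-type lectins and 6 of the 35 NF-κB regulators. Over all genes tested the share was 8.38%. For *Hmgcs1* the difference did not pass (0.35, adjusted p = 0.00206), nor for *Ftl1* (0.28, adjusted p = 0.00218).

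**Figure D4:**
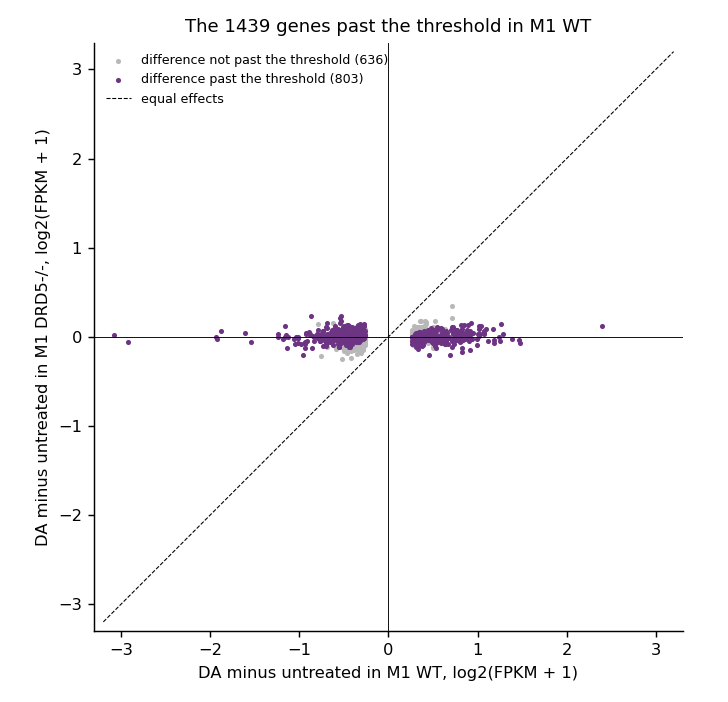
Change with DA in M1 DRD5-/- BMDMs (y axis) against the change in M1 WT BMDMs (x axis), both on the log2(FPKM + 1) scale, for the 1439 genes past the threshold in WT. Points are genes, in purple where the difference between the genotypes passed (803) and in grey where it did not (636); all changes in DRD5-/- cells lie within 0.35 of 0, far from the dashed line of equal effects for the large WT changes.

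Markers of other cell types were read beside these results. The summed FPKM of the 7 neutrophil markers was between 37.3 and 47.2 without DA and between 57.7 and 70.7 with it. Most of this came from *S100a8*, while *S100a9* overlapped between the groups and *Elane* was at 0. The 6 dendritic cell markers summed to between 38.5 and 40.9 FPKM and to between 21.7 and 22.7 with DA, nearly all from *Ccr7*, and *Flt3*, *Zbtb46*, *Clec9a* and *Siglech* stayed under 1 FPKM. The T cell sum went from between 2.61 and 2.98 FPKM to between 1.47 and 1.98, and *Cd3e* did not pass 0.03. The summed endothelial markers, between 20.5 and 21.3 without and 18.5 and 18.7 with DA, included *Pecam1*, which fell by 1.05, and *Kdr*, between 13 and 14 FPKM in all 6 libraries. The 10 macrophage markers summed to between 7783 and 7917 FPKM without DA and between 8453 and 8540 with it, and *Csf1r*, the receptor of the macrophage growth factor, rose by 0.41. The part of these markers in the *Mmp8* increase and the *Ccr7* and *Cd83* decreases was not tested.

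**Figure D5:**
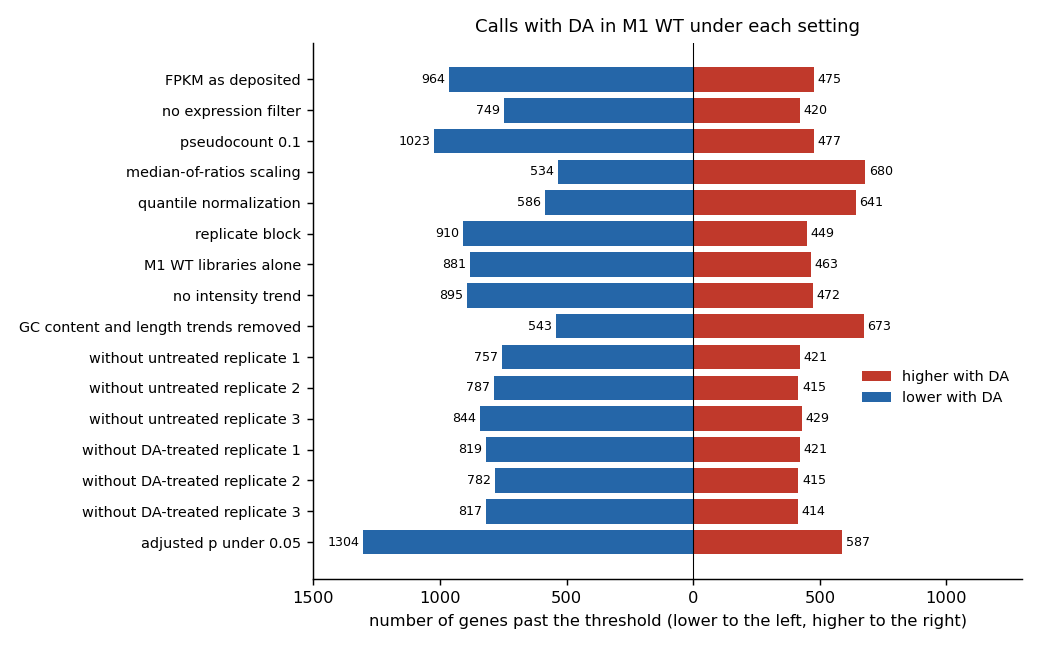
Number of genes past the threshold with DA in M1 WT BMDMs, lower to the left in blue and higher to the right in red (x axis), under each setting of the processing (y axis), with the count at the end of each bar. The bars of 964 lower and 475 higher genes change order only with median-of-ratios scaling (534 and 680), quantile normalization (586 and 641) and removal of the GC content and length trends (543 and 673).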

How the data were processed

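Total RNA was sequenced on a BGISEQ-500, and the authors deposited FPKM per gene, made from filtered and mapped reads. The labels and methods name HISAT2, while the submitters' processing notes name Bowtie2 2.2.5 and GRCm38.p6. FPKM are relative to the mapped reads of a library, so the level of each gene depends on that of the others. They carry no read totals, and the low values did not resolve a step per read.

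Values were tested as log2(FPKM + 1) with limma 3.58.1 (R 4.3.3; intensity trend, 4 M1 group means, 12 libraries), with Benjamini-Hochberg adjustment over the 10040 genes with at least 1 FPKM in 3 libraries. Fold changes of low genes are understated on this scale. A call needs an adjusted p under 0.001 and at least 1.2-fold. On data simulated for the WT comparison over 10040 genes, 93 of 100 genes changed 1.5-fold and 98 of 100 changed 2-fold were recovered, with 0 false calls. The changed genes were not drawn from those of lowest expression, and the noise was independent, with no shift of all genes. The simulation therefore cannot speak to recovery of the lowest genes or to calls that depend on the scaling.

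Named are genes of at least 2-fold, up to 4 members per list with the largest change or any member a sentence is about, the 10 largest differences in FPKM, and the dopamine and cAMP list. Some genes that meet this rule are not reported here. The lists and members were chosen with earlier results of these data known. Symbol patterns of 2 lists were corrected after values were seen. Lists were described by counts and medians, without a set test. Promoter sequences are from RefSeq. Alternatives were another scaling, pseudocount, filter, trend, threshold, sample set and block, and leaving out each library.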

Additional observations from a re-analysis of the deposited data

Results flagged for a closer look

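These results were singled out because the effect of DA differed between M1 WT and M1 DRD5-/- BMDMs by limma's interaction term. That was so for 841 genes, of which 803 were also past the threshold in WT, and for all 44 genes that changed at least 2-fold there. The 803 and the 44 depend on the WT change, which is also part of the interaction term. By list, it was so for 30 of 61 chaperone genes, 24 of 61 antioxidant and glutathione genes and 9 of 33 sterol synthesis genes. It was also so for 8 of 43 heme and iron genes and 7 of 13 C-type lectins, against 8.38% of all genes tested. The lists and the following 4 genes were picked after their values were seen. The WT effect minus the DRD5-/- effect, on the log2(FPKM + 1) scale, was 2.28 for *Slc40a1*, 1.41 for *Hmox1*, -1.94 for *Il12b* and -3.11 for *Hspa1a*. In DRD5-/- cells their changes with DA were 0.12, -0.03, -0.00 and 0.02. The groups of 3 libraries are too small to look for a library far from the others.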

How the results depend on the processing

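The number of genes called with DA in M1 WT, 1439, was 1169 without the expression filter and 1500 with a pseudocount of 0.1. It was 1344 with the WT libraries alone, 1367 without the intensity trend and 1891 at an adjusted p under 0.05. At 2-fold it was 44, with 22 higher and 22 lower. The number lower, 964, went to 534 with median-of-ratios scaling, 586 with quantile normalization and 543 with the GC content and length trends removed. The number whose effect differed between genotypes, 841, went to 1836 at an adjusted p under 0.05 and 41 at 2-fold. Leaving out 1 library gave 1178 to 1273 calls, 414 to 429 higher, 757 to 844 lower and 625 to 720 that differed. With the replicate block, which pairs libraries that share only a number, 1359 genes were called, 449 higher and 910 lower, and 716 differed. Residuals of same-numbered libraries did not go together (r = -0.0914, -0.0293 and -0.0266), and 0 of 3 untreated libraries correlated best with the DA-treated library of its number.

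Of 266 called genes named by the rule or in the text, 233 kept their call with median-of-ratios scaling, 234 with quantile normalization, 259 with the replicate block and 240 to 248 with 1 library left out, and 0 turned direction. Read depth is unknown, so the precision of low genes such as *Hspb1* rests on the spread of 3 libraries alone.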

Other observations

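Other genes moved together outside the lists and were noticed after their values were seen. Paired immunoglobulin-like receptors, surface receptors of myeloid cells whose genes are near-copies that may share reads, rose with DA in M1 WT BMDMs. *Pira2* went from 60.8 ± 1.66 to 104 ± 2.45 FPKM (SD, n = 3 each; 0.76 on the log2 scale, limma adjusted p = 2.15e-09). *Pira1* rose by 0.71, *Pira6* by 0.59, *Lilra6* by 0.99, *Gm14548* by 0.82 and *Gm15448* by 1.02, and for these 6 genes the effect also differed from that in DRD5-/- BMDMs. *Tomm40* and *Tomm70a*, which encode parts of the channel and a receptor for protein import through the outer membrane of mitochondria, fell by 0.64 and 0.65. *Tomm40* was at 16.1 ± 0.696 FPKM without DA and 9.95 ± 0.405 with it.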
